A study of Homo sapiens with 24 samples.

Results

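The MAP kinase phosphatases are a group of dual-specificity phosphatase (DUSP) genes, and the 10 genes DUSP1, DUSP2, DUSP4, DUSP5, DUSP6, DUSP7, DUSP8, DUSP9, DUSP10 and DUSP16 are described here across 2 osteosarcoma cell lines and 3 doses of the transcriptional kinase inhibitor THZ2. A gene's members on the array were the probe sets whose only gene symbol was that gene. By this rule the 10 genes had 23 of the 49372 probe sets, and they were 10 of the 18132 genes that the array could name. All 10 passed the filter on dim genes and were tested.

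MAP kinases are switched on when an upstream kinase phosphorylates a threonine and a neighbouring tyrosine in their activation loop, and MAP kinase phosphatases switch them off by removing both phosphates. DUSP1, DUSP2, DUSP4 and DUSP5 encode nuclear enzymes whose genes are rapidly induced by growth factors and stress, DUSP6, DUSP7 and DUSP9 encode mainly cytoplasmic enzymes that prefer ERK, and DUSP8, DUSP10 and DUSP16 encode enzymes that prefer JNK and p38. Several of the genes are transcribed in response to the kinases their products switch off, and the transcripts of the inducible members are short-lived. THZ2 binds CDK7 covalently and blocks it, and CDK7 acts within TFIIH on the tail of RNA polymerase II at the start of transcription.

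U2-OS and SJSA-1 are established human osteosarcoma lines, each used here as a single line in serum-containing medium. Each was cultured for 6 h with DMSO, the vehicle, or with THZ2 at 25, 100 or 400 nM, which gave 8 groups of 3 arrays. Total RNA was hybridised to a 3′ expression array (PrimeView) with 1 colour, and the deposited intensities were tested as log2(intensity + 16) with limma, with Benjamini-Hochberg adjustment over all 16173 tested genes. "Rose" and "fell" mark an adjusted p under 0.05 in that fit, and a log2 change is given with its standard error (SE). The labels number the arrays of a group 1 to 3 and do not say whether these came from separate cultures, so the p-values measure only the spread between these samples, which may be technical.

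The values fell into 3 normalization sets, which shared almost no identical values with each other: U2-OS at DMSO, 25 and 100 nM (array medians 33.5 to 34.5), U2-OS at 400 nM (36.6 to 37.3) and SJSA-1 (23.4 to 25.5). The 400 nM dose in U2-OS and its set therefore cannot be told apart, and levels in the 2 lines are given side by side with no test. Of 10 bone and mesenchymal markers, 8 in U2-OS and 9 in SJSA-1 had a mean at or above the filter intensity of 12.73, with VIM at 6847 and 8343 and the osteoblast factor RUNX2 at 122 and 69.8. IBSP (7.91 and 6.02) in both lines and COL1A2 (11.3) in U2-OS were under it. Of 10 nervous tissue markers 9 in U2-OS and 5 in SJSA-1 were at or above it, and of 7 epithelial markers 7 and 6. These counts therefore do not tell the tissues apart. Summed markers of epithelium, nervous tissue and blood were higher at 400 nM than with DMSO in both lines, as given beside the genes that rose, and NEFL, a neuronal gene, had a mean of 490 in U2-OS. Arrays of this kind measure RNA in bulk, and fewer cells carrying a transcript cannot be told apart from less of it per cell. With 3 arrays a group, their number limits the precision, and an exact permutation test of a single gene cannot go below p = 0.1.

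Upstream sequences are shown for 3 genes since DUSP1, DUSP6 and DUSP10 fell together in SJSA-1 and represent the nuclear, the cytoplasmic and the JNK and p38 classes. They are the 250 bases before the outermost start of each gene in RefSeq, build GRCh38.p14, all on the minus strand: chr5:172771196-172771445 for DUSP1, chr12:89352502-89352751 for DUSP6 and chr1:221742090-221742339 for DUSP10. Capitals mark exact matches, on either strand, to 4 motifs: the cAMP response element TGACGTCA, the AP-1 site TGACTCA, the TATA box TATAAA and the ETS core CCGGAA.
DUSP1: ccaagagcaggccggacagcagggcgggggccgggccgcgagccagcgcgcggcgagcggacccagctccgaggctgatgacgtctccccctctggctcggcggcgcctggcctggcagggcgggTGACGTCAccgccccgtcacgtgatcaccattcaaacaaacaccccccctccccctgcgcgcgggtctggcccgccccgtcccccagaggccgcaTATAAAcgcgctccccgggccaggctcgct
DUSP6: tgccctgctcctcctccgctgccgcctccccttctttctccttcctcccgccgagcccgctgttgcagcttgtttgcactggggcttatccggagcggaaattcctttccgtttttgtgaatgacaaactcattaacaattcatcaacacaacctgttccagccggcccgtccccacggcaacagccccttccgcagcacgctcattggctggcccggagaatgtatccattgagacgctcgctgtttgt
DUSP10: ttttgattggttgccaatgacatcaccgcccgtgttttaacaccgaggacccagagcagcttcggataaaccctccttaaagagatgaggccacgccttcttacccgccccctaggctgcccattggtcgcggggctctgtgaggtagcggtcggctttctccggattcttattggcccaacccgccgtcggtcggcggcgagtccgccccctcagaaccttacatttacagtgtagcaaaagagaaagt
The DUSP1 window held the cAMP response element at bases 125 to 118 before the start and a TATA box at bases 30 to 25. None of the 4 motifs had a match in the DUSP6 or the DUSP10 window. Over 35116 windows of this length, 1.65% held the response element, 4.2% the AP-1 site, 10.7% the TATA box and 14.5% the ETS core. Of the 10 genes, 8 had a window in the table, and DUSP4 and DUSP5 had none. An inner start of DUSP8 had the response element at 2 places, bases 118 to 111 and 74 to 67. A match is a description of letters and not of a bound site.

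**Figure D1:**
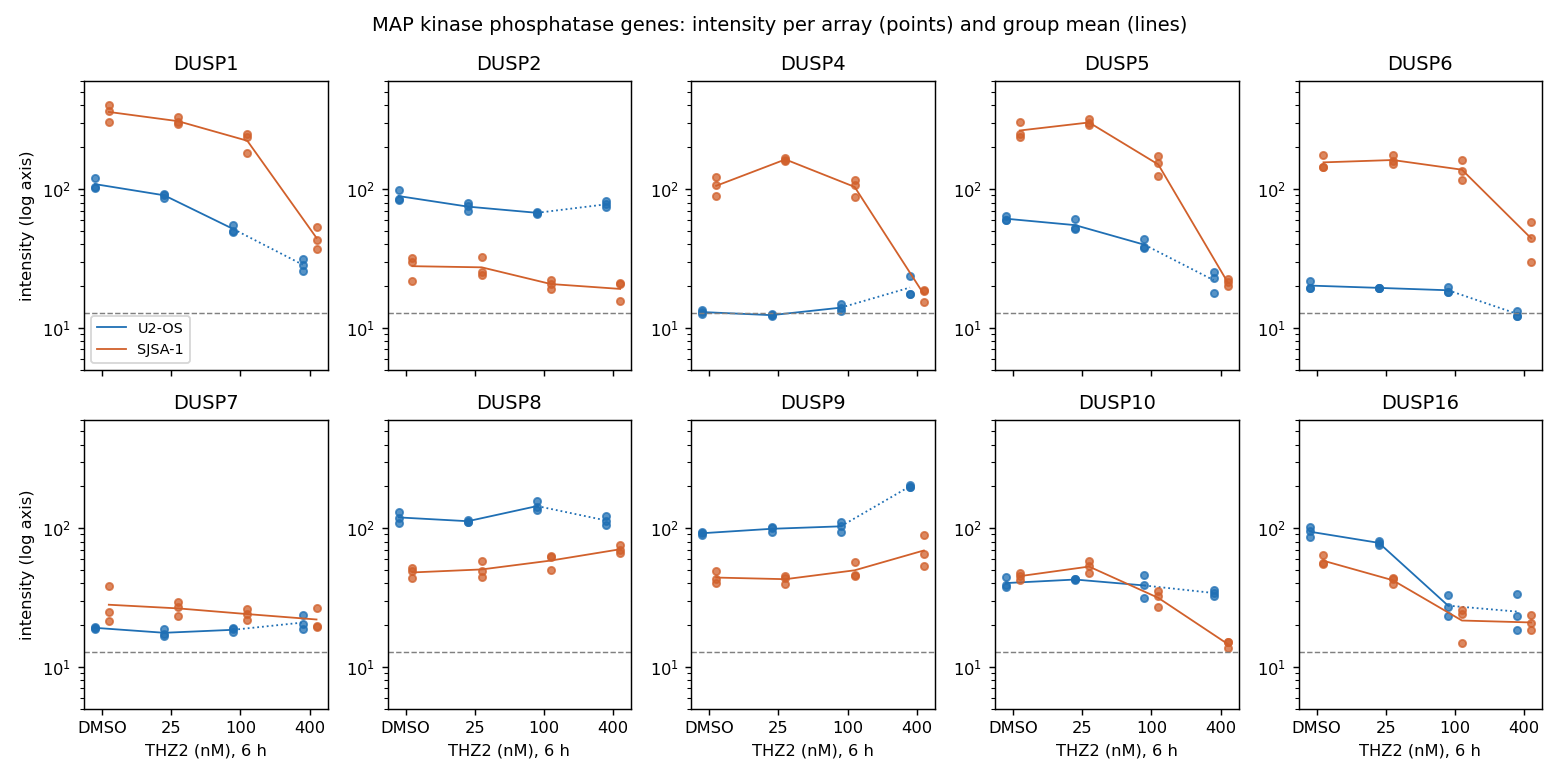
Deposited intensity (log axis) of the brightest probe set of each gene against treatment, with a point for each array and lines through the group means; the dashed line is the filter intensity of 12.73 and the dotted segments lead to the U2-OS 400 nM arrays, which were normalized in a set of their own. In SJSA-1 the lines of DUSP1, DUSP4, DUSP5, DUSP6 and DUSP10 drop steeply to 400 nM, while those of DUSP8 and DUSP9 climb; levels of the 2 lines come from separate normalization sets.

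At the highest dose all 10 genes changed in SJSA-1. Of these, 8 fell and 2 rose, against 24.9% of all tested genes that fell and 41.6% that rose. These counts and shares depended on the scaling. With arrays centred on the poly-A spike-in probe sets, 8 fell and 0 rose, where 61.6% of all genes fell and 0.068% rose. Median centring and quantile normalization each gave 7 that fell and 2 that rose, where 22.5% and 22.7% of all genes fell. The median change of the 10 genes was −1.0 on the log2 scale, against 0.10 over all tested genes. On this scale 5 of the 10 genes fell by at least 1. DUSP10, at −0.99 on this scale, was also at least 2-fold lower by mean intensity. Its DMSO mean was 3.07 times its 400 nM mean. At 100 nM in SJSA-1, 5 fell and none rose, where 24.9% of all genes fell and 24.5% rose (median −0.21 against 0.06 over all genes). At 25 nM 2 of the 10 passed, 1 in each direction, where 8.17% of all genes did. In U2-OS none passed at 25 nM in limma, where 0.0804% of all genes did and 2 of the 10 had an unadjusted p under 0.05. At 100 nM in U2-OS 1 rose and 4 fell, where 19.8% and 22.1% of all genes did so, and at 400 nM 2 rose and 4 fell, where 48.4% and 24.8% did so. The medians of the 10 genes in U2-OS, −0.05 at 100 nM and −0.16 at 400 nM, stood beside 0.06 and 0.15 over all genes.

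**Figure D2:**
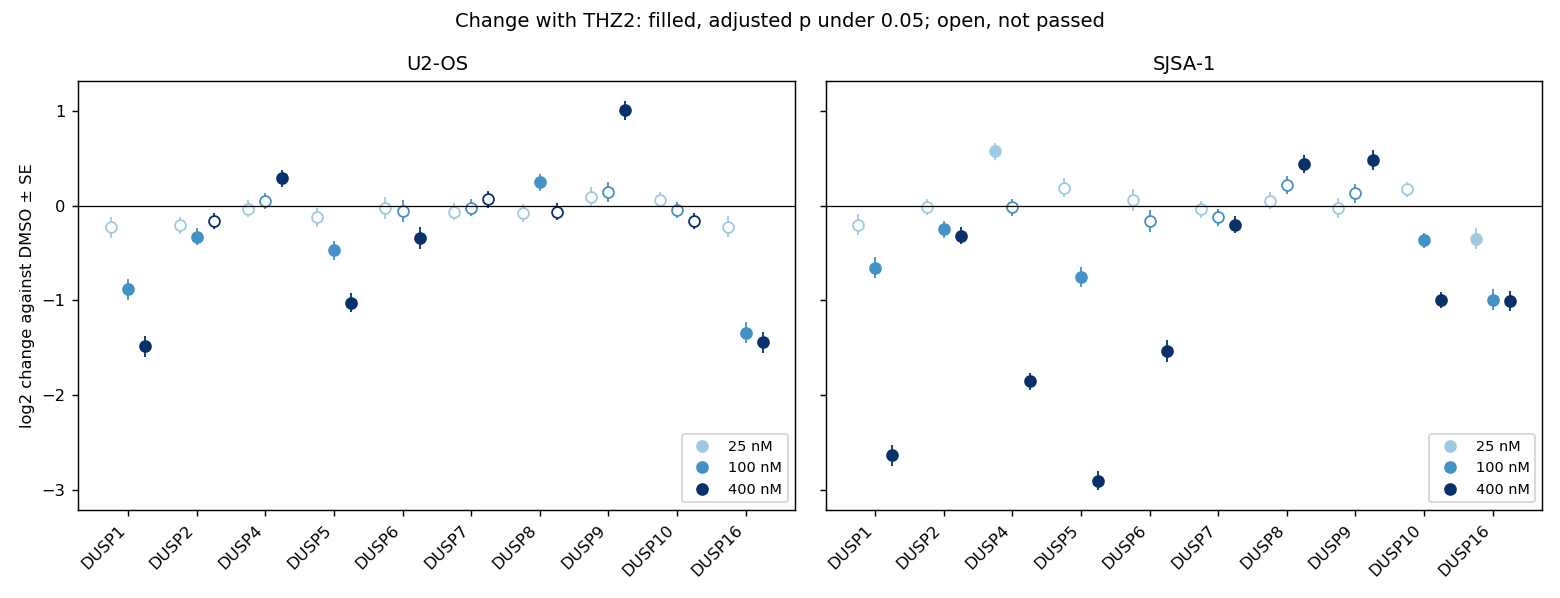
Log2 change of each gene against the DMSO arrays of its line (vertical axis, with SE bars) at 25, 100 and 400 nM; filled points have a limma adjusted p under 0.05. DUSP16 and DUSP1 lie low at 100 nM in both lines, and DUSP4, DUSP6 and DUSP10 lie low at 400 nM in SJSA-1 with values nearer to 0 in U2-OS, where that dose is a separate normalization set. The U2-OS DMSO means of DUSP4 (13.0) and DUSP6 (20.2) lay close to the filter intensity of 12.73, which leaves little room for a fall. That of DUSP10 was 40.2.

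Among the inducible nuclear phosphatases, DUSP1 acts on JNK, p38 and ERK. In SJSA-1 its 3 DMSO arrays read 307, 405 and 367, the 25 nM arrays 292, 304 and 329, the 100 nM arrays 249, 239 and 181, and the 400 nM arrays 43.1, 37.0 and 53.4. The 25 nM arrays overlapped the control arrays, and every array at 100 and 400 nM lay below all of them. DUSP1 fell by 0.66 ± 0.11 on the log2 scale at 100 nM (limma adjusted p = 1.7e-05) and by 2.63 ± 0.11 at 400 nM (limma adjusted p = 1.7e-17), to 12.4% of the DMSO mean. In U2-OS the DMSO arrays read 102, 121 and 103, the 100 nM arrays 49.8, 55.2 and 49.4, and the 400 nM arrays 25.7, 31.6 and 28.3. Again no array at these doses reached a control array. DUSP1 fell by 0.88 ± 0.11 at 100 nM in U2-OS (limma adjusted p = 2.0e-07) and by 1.48 ± 0.11 at 400 nM. At 25 nM the change was −0.20 ± 0.11 for SJSA-1 and −0.23 ± 0.11 for U2-OS, and neither passed.

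The 4 probe sets of DUSP1 did not move alike. At 400 nM in SJSA-1 all 4 fell, from −0.32 ± 0.09 for 11758730_x_at to −2.63 ± 0.11 for 11715766_a_at, the brightest and the one used above. At 400 nM in U2-OS 2 fell, 11715765_a_at rose by 0.40 ± 0.09 and 11758730_x_at did not pass. In U2-OS at 100 nM only the brightest of the 4 passed. With the mean of the probe sets in place of the brightest, the U2-OS change at 100 nM was −0.18 and did not pass.

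DUSP5 encodes a nuclear phosphatase selective for ERK. Its SJSA-1 arrays read 239, 307 and 247 with DMSO, 290, 298 and 317 at 25 nM, 154, 172 and 124 at 100 nM, and 20.1, 22.6 and 21.6 at 400 nM. The 3 arrays at 400 nM lay far below every other SJSA-1 array, and those at 25 nM overlapped the controls. The gene fell by 0.75 ± 0.10 at 100 nM and by 2.90 ± 0.10 at 400 nM (limma adjusted p = 4.3e-19), a 12.3-fold lower mean intensity and the lowest log2 change among the 10 genes in any comparison with DMSO. In U2-OS it read 59.6, 59.6 and 64.5 with DMSO, 38.1, 43.6 and 37.5 at 100 nM, and 17.8, 25.5 and 22.9 at 400 nM. The groups did not overlap at either dose, and DUSP5 fell by 0.47 ± 0.10 and 1.02 ± 0.10. DUSP5 has 1 probe set that names it alone.

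DUSP4, a nuclear phosphatase of ERK and JNK, was the one gene of the 10 that rose at the lowest dose. Its SJSA-1 arrays read 88.6, 122 and 106 with DMSO, 168, 160 and 163 at 25 nM, 106, 117 and 88.0 at 100 nM, and 18.4, 18.8 and 15.3 at 400 nM. The 25 nM arrays were all above the control arrays, the 100 nM arrays overlapped them with 1 just below, and the 400 nM arrays were all far below. DUSP4 rose by 0.57 ± 0.09 at 25 nM (limma adjusted p = 5.6e-05), showed −0.02 ± 0.09 at 100 nM, and fell by 1.85 ± 0.09 at 400 nM (limma adjusted p = 2.1e-16). The rise at 25 nM was 0.47 and did not pass after the arrays were centred on the spike-in controls. In U2-OS DUSP4 was near the filter intensity, with a DMSO mean of 13 ± 0.51 (SD, n = 3), 12.4 at 25 nM and 14.0 at 100 nM. At 400 nM in U2-OS it read 23.5, 17.5 and 17.6 and rose by 0.29 ± 0.09, and without replicate 1 of that group the change was 0.21 and did not pass. It did not pass with spike-in centring (0.12), quantile normalization (0.14) or a pseudocount of 64 (0.12) either.

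DUSP2, a nuclear phosphatase known mainly from activated lymphocytes, changed little. In U2-OS it read 84.0, 98.8 and 84.4 with DMSO and 66.7, 67.2 and 68.5 at 100 nM, groups that did not overlap, and it fell by 0.33 ± 0.09. At 400 nM in U2-OS the change was −0.16 ± 0.09 and did not pass. In SJSA-1 it read 21.7, 31.8 and 30.1 with DMSO and 20.7, 21.0 and 15.7 at 400 nM, and it fell by 0.32 ± 0.09. In SJSA-1 DUSP2 fell at 100 nM by 0.25 ± 0.09, with 1 array inside the range of the controls. This call was lost without DMSO replicate 2 (−0.18), without DMSO replicate 3 (−0.21) and without 100 nM replicate 2 (−0.22), with quantile normalization (−0.21) and in a fit of the 12 SJSA-1 arrays alone.

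DUSP6, the cytoplasmic ERK phosphatase that is a well-known negative feedback gene of ERK signalling, passed the test at the highest dose alone by its brightest probe set. In SJSA-1 its arrays read 145, 177 and 145 with DMSO, 175, 160 and 151 at 25 nM, 135, 163 and 115 at 100 nM, and 44.6, 29.9 and 58.1 at 400 nM. Groups up to 100 nM overlapped the controls, and the 400 nM arrays were all below them. DUSP6 showed −0.16 ± 0.12 at 100 nM and fell by 1.54 ± 0.12 at 400 nM (limma adjusted p = 4.8e-12). Each of its 4 probe sets fell at 400 nM in SJSA-1, by 1.53 to 2.19. At 100 nM there 1 of the 4 fell, and 2 fell over the step from 25 to 100 nM. In U2-OS DUSP6 read 21.6, 19.5 and 19.5 with DMSO and 13.3, 12.3 and 12.3 at 400 nM. There it fell by 0.34 ± 0.12, to a mean of 12.6 that lies under the filter intensity. Its 3 other probe sets did not pass in that comparison, and the call was lost with the mean of the probe sets (−0.11) and with a pseudocount of 64 (−0.14).

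DUSP7, another cytoplasmic ERK phosphatase, was dim in both lines, with DMSO means of 19.1 ± 0.29 in U2-OS and 28.1 ± 8.8 in SJSA-1 (SD, n = 3). In U2-OS no change passed, with −0.03 ± 0.09 at 100 nM and 0.07 ± 0.09 at 400 nM. In SJSA-1 it read 21.4, 38.1 and 24.8 with DMSO and 19.6, 26.5 and 19.8 at 400 nM, groups that overlapped. It fell by 0.20 ± 0.09 with a limma adjusted p of 0.0499. Without DMSO replicate 2 the change was −0.05, without 400 nM replicate 1 it was −0.16 and without 400 nM replicate 3 it was −0.16, and none of these passed. The call was also lost with median centring, quantile normalization, a pseudocount of 1, no filter, the mean of probe sets, no intensity trend, or the 12 SJSA-1 arrays alone.

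DUSP9, the remaining cytoplasmic ERK phosphatase, went the other way. In U2-OS it read 91.5, 94.3 and 89.9 with DMSO, 94.3, 104 and 111 at 100 nM, and 196, 199 and 205 at 400 nM. Only the 400 nM arrays stood well above the others, and DUSP9 rose by 1.0 ± 0.10 there (limma adjusted p = 2.1e-09) in the set normalized on its own. In SJSA-1 it read 40.5, 42.8 and 48.8 with DMSO and 65.3, 88.6 and 53.1 at 400 nM, with no overlap, and rose by 0.48 ± 0.10. Both of its probe sets rose at 400 nM in both lines, by 0.98 and 1.0 in U2-OS and by 0.42 and 0.48 in SJSA-1. At 100 nM the changes of 0.14 ± 0.10 in U2-OS and 0.13 ± 0.10 in SJSA-1 did not pass.

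Of the phosphatases that prefer JNK and p38, DUSP16 fell furthest at 100 nM. In U2-OS its arrays read 102, 95.1 and 86.2 with DMSO, 78.2, 76.1 and 80.6 at 25 nM, 23.1, 27.0 and 32.8 at 100 nM, and 18.6, 23.1 and 33.4 at 400 nM. The arrays at 100 and 400 nM covered about the same range, far below the controls. DUSP16 fell by 1.34 ± 0.11 at 100 nM (limma adjusted p = 4.5e-11) and by 1.44 ± 0.11 at 400 nM in U2-OS. In SJSA-1 it read 54.9, 56.1 and 63.6 with DMSO, 44.0, 39.7 and 42.8 at 25 nM, 25.6, 24.3 and 14.9 at 100 nM, and 20.7, 23.6 and 18.5 at 400 nM. No treated array reached a control array at any dose. It fell by 0.35 ± 0.11 at 25 nM (limma adjusted p = 0.0433), by 0.99 ± 0.11 at 100 nM and by 1.01 ± 0.11 at 400 nM. The call at 25 nM was lost in 5 of the 6 fits that left out a control or 25 nM array (−0.37 without DMSO replicate 2, −0.30 without DMSO replicate 3, −0.37 without 25 nM replicate 1, −0.32 without replicate 2 and −0.36 without replicate 3). It was also lost with spike-in centring, quantile normalization, no filter, a pseudocount of 1, no intensity trend, and the 12 SJSA-1 arrays alone.

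Probe set 11764149_s_at carried the change of DUSP16, and the 2 dimmer ones changed less. In SJSA-1 at 400 nM these fell by 0.29 ± 0.05 (11723316_a_at) and 0.12 ± 0.05 (11752504_a_at). In U2-OS at 400 nM the first fell by 0.42 ± 0.05 and the second rose by 0.30 ± 0.05, while at 100 nM neither passed.

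DUSP10, a phosphatase of JNK and p38 found in both nucleus and cytoplasm, read 45.6, 47.5 and 42.2 with DMSO in SJSA-1, 53.1, 57.7 and 47.8 at 25 nM, 32.2, 35.3 and 26.9 at 100 nM, and 15.2, 15 and 13.7 at 400 nM. The 25 nM arrays lay above the controls and the arrays at higher doses below them. The change of 0.17 ± 0.08 at 25 nM did not pass, and DUSP10 fell by 0.37 ± 0.08 at 100 nM and by 0.99 ± 0.08 at 400 nM (limma adjusted p = 2.7e-11). All 4 probe sets fell at 400 nM in SJSA-1, by 0.66 to 1.38, and 1 of the 4 fell at 100 nM. In U2-OS the DMSO mean of 40.2 ± 3.5 (SD, n = 3) stood beside 38.6 ± 7.2 at 100 nM and 34.1 ± 1.5 at 400 nM, with changes of −0.05 ± 0.08 and −0.16 ± 0.08 that did not pass. At the higher of these doses DUSP10 did pass with median centring (−0.23), quantile normalization (−0.25), spike-in centring (−0.51) and the mean of its probe sets (−0.15). At 400 nM in U2-OS 2 of the 4 probe sets fell, by 0.24 and 0.25.

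DUSP8, a phosphatase of JNK and p38 known best from brain, read 43.4, 48.8 and 51.6 with DMSO in SJSA-1 and 69.6, 75.1 and 66.7 at 400 nM, with no overlap, and rose by 0.44 ± 0.09. At 100 nM in SJSA-1 the change was 0.22 ± 0.09 and did not pass (limma adjusted p = 0.0536), although it did with median centring (0.27) and quantile normalization (0.31). In U2-OS it read 131, 108 and 119 with DMSO and 156, 136 and 141 at 100 nM, all above the controls, and rose by 0.24 ± 0.09 (limma adjusted p = 0.0354). That call was lost without DMSO replicate 2 (0.18), without DMSO replicate 3 (0.24), without 100 nM replicate 1 (0.19) and without 100 nM replicate 3 (0.26), and with a pseudocount of 1 (0.27). At 400 nM in U2-OS the change was −0.06 ± 0.09. Its second probe set, 11758684_x_at, gave 0.76 ± 0.06 in U2-OS and 0.00 ± 0.06 in SJSA-1 at 400 nM, so the 2 probe sets differed in both lines.

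The rises of DUSP8, and that of DUSP9 in SJSA-1, depended on the scaling, while DUSP9 in U2-OS at 400 nM rose under each scaling tried (0.68 with spike-in centring, and 0.88 to 1.03 with the others). After each array was centred on the poly-A spike-in probe sets, which read RNA added to the sample and which moved the median change of all genes to −0.32 in U2-OS at 100 nM, and in SJSA-1 −0.23 at 100 nM and −0.50 at 400 nM, DUSP8 changed by −0.20 in U2-OS at 100 nM and by −0.31 in SJSA-1 at the highest dose, and DUSP9 by −0.28 there. The spike-in mean itself varied between 7.18 and 8.84 (log2) over the 3 SJSA-1 arrays at 400 nM. With that scaling 0.501% of all genes rose and 29.9% fell at 100 nM in SJSA-1, and 0.068% rose and 61.6% fell at 400 nM. Centring on the array median gave 36.1% up and 23.3% down at 100 nM in SJSA-1. The summed intensity of 7 epithelial markers was 192 to 230 with DMSO and 310 to 343 at 400 nM in SJSA-1, and 365 to 382 and 613 to 640 in U2-OS. The sum of 10 nervous tissue markers went from a range of 164 to 170 with DMSO to 209 to 240 at 400 nM in SJSA-1, and from 676 to 723 to 921 to 1020 in U2-OS. The sum of 8 blood markers went from 152 to 172 to 218 to 253 in SJSA-1, and from 233 to 243 to 265 to 310 in U2-OS. Of the 7 epithelial markers 5 rose in SJSA-1 and 7 in U2-OS at 400 nM, of 9 tested nervous tissue markers 6 rose in each line, and of 6 tested blood markers 4 rose in SJSA-1 and 3 in U2-OS, where 41.6% and 48.4% of all genes rose. AQP4, an astrocyte marker, and PTPRC and LYZ, markers of blood cells, had means under the filter intensity in both lines. Of the 8 blood markers 5 in U2-OS and 4 in SJSA-1 were at or above it, among them HBB (80.1 and 59.4) and CD68 (68.2 and 59.8), as were EPCAM (43.0 and 80.7) and GFAP (84.4 and 42.9). Their part in the rises of DUSP8 and DUSP9 was not tested.

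**Figure D3:**
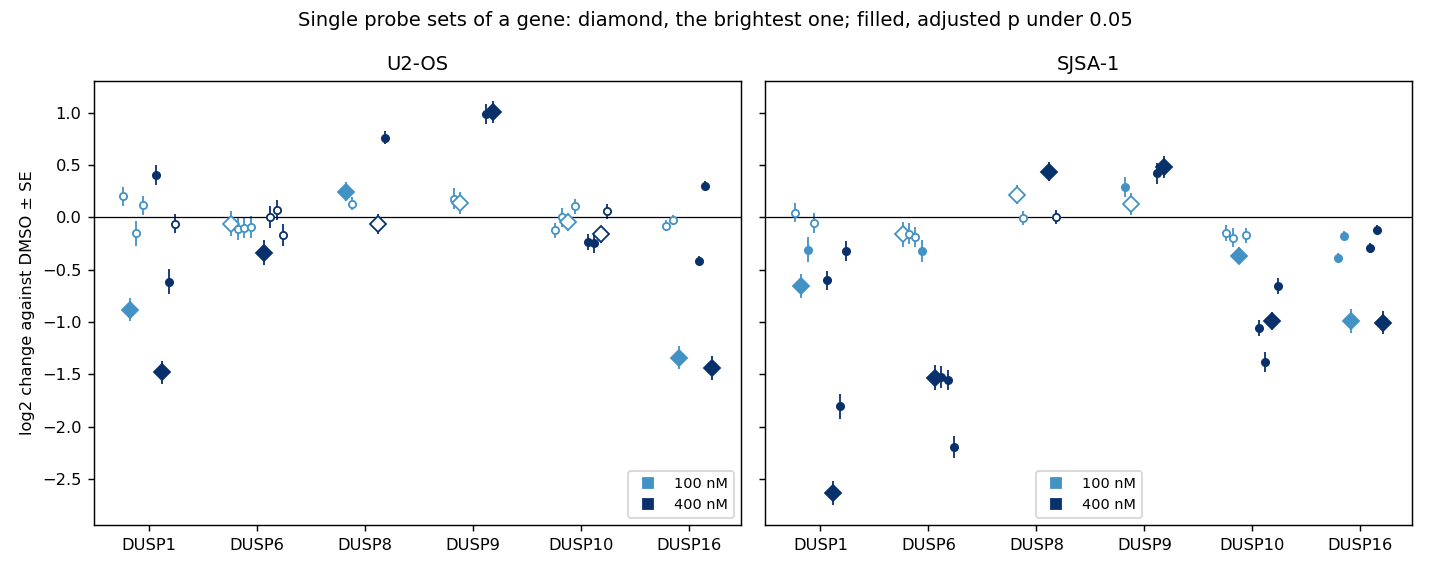
Log2 change against DMSO (vertical axis, with SE bars) of each single probe set of the 6 genes with more than 1, at 100 and 400 nM; diamonds mark the brightest probe set and filled symbols a limma adjusted p under 0.05. The probe sets of each gene but DUSP8 share a direction in SJSA-1 at 400 nM, though those of DUSP1 and DUSP16 spread widely, and in U2-OS at that dose 1 probe set of each of these rose while others fell.

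The dose steps within SJSA-1, whose 12 arrays belong to 1 normalization set, separated the genes by where they changed. From 25 to 100 nM 6 of the 10 genes fell and none rose, where 23.0% of all genes fell and 18.6% rose. The log2 changes over this step were −0.94 ± 0.10 for DUSP5, −0.64 ± 0.11 for DUSP16, −0.59 ± 0.09 for DUSP4, −0.54 ± 0.08 for DUSP10, −0.45 ± 0.11 for DUSP1 and −0.23 ± 0.09 for DUSP2. From 100 to 400 nM 5 fell and 1 rose, where 11.6% of all genes fell and 14.8% rose. The falls were −2.14 ± 0.10 for DUSP5, −1.98 ± 0.11 for DUSP1, −1.83 ± 0.09 for DUSP4, −1.37 ± 0.12 for DUSP6 and −0.63 ± 0.08 for DUSP10, while DUSP9 rose by 0.36 ± 0.10. DUSP16 showed −0.02 ± 0.11 over this last step, with a 95% interval of −0.24 to 0.21. The largest part of its fall was thus between 25 and 100 nM, and that of DUSP6 was between 100 and 400 nM.

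**Figure D4:**
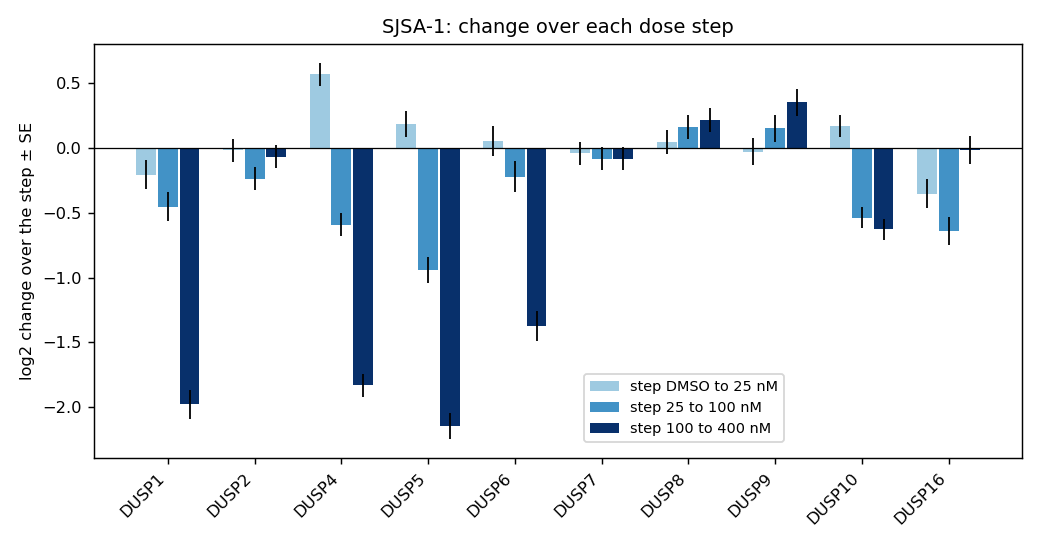
Log2 change over each dose step in SJSA-1 (bars from 0, with SE bars), from DMSO to 25 nM, from 25 to 100 nM and from 100 to 400 nM. The last step is the deepest for DUSP1, DUSP4, DUSP5 and DUSP6, and narrowly so for DUSP10, and it is near 0 for DUSP16.

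In U2-OS the step from 25 to 100 nM lies within 1 set. Over it 3 of the 10 genes fell and 1 rose, where 23.1% and 24.8% of all genes did so. The changes were −1.12 ± 0.11 for DUSP16, −0.65 ± 0.11 for DUSP1 and −0.35 ± 0.10 for DUSP5, and DUSP8 rose by 0.32 ± 0.09. DUSP2, DUSP4, DUSP6, DUSP7, DUSP9 and DUSP10 did not pass over this step.

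The change at a dose was compared between the lines by the interaction of line and dose, SJSA-1 minus U2-OS, which sets each line against its own controls. At 25 nM 1 gene, DUSP4, differed, where 1.08% of all genes did so. The difference was 0.60 ± 0.12 (95% interval 0.35 to 0.86, limma adjusted p = 0.0129), in a comparison where DUSP4 was near the filter intensity in U2-OS. At 100 nM none of the 10 genes passed in limma, where 16.7% of all genes did, and 2 had an unadjusted p under 0.05. DUSP10 differed by −0.32 (interval −0.56 to −0.08, limma adjusted p = 0.0571) and DUSP16 by 0.35 (interval 0.03 to 0.67, limma adjusted p = 0.131). These values are for the brightest probe set. Tested singly, 1 of the 3 DUSP16 probe sets did pass, with a negative difference, and the other 2 did not. The interval for DUSP1 ran from −0.10 to 0.55 and that for DUSP5 from −0.58 to 0.01, and differences between the lines anywhere in these intervals could not be told from 0 here. At 400 nM the difference was not tested, since the U2-OS arrays form a set of their own. The values stood at −2.90 in SJSA-1 and −1.02 in U2-OS for DUSP5, at −1.54 and −0.34 for DUSP6, at −0.99 and −0.16 for DUSP10 and at −1.01 and −1.44 for DUSP16. The starting levels differed too. DUSP5 had DMSO means of 264 in SJSA-1 and 61.2 in U2-OS, and 400 nM means of 21.4 and 22.1. DUSP6 had DMSO means of 156 and 20.2, the latter close to the filter intensity, which limits how far a fall can show. Those of DUSP10 were 45.1 and 40.2. The part of the starting level in these values was not tested.

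Over the 24 arrays, with each line's mean subtracted, the genes that shared a pattern could be listed by Pearson's r, given as a description since the arrays share doses and sets. DUSP1 and DUSP5 had r = 0.966, DUSP5 and DUSP6 had 0.947, and DUSP5 and DUSP10 had 0.944. DUSP9 ran against DUSP1, at −0.737. DUSP16 had 0.724 to DUSP1 and 0.233 to DUSP4, and DUSP7 had 0.28 to DUSP1 and 0.294 to DUSP6. Among the other 16172 tested genes, the most alike to DUSP5 were SLC38A2 (0.984), RGS3 (0.976) and SUSD6 (0.974). For DUSP1 they were SNAI2 (0.98), TCF7L2 (0.978) and SIAH2 (0.976). DUSP6 was most like SPRY2 (0.968), itself an inhibitor of signalling from receptor tyrosine kinases to ERK, ADNP2 (0.967) and CCN1 (0.963). For DUSP4 they were GATA2, DLX1 and HSPA2 (0.966 to 0.957), for DUSP10 PDE4B, TFAP2C and PDCD7 (0.956 to 0.952), and for DUSP16 SNHG7, WDR53 and ZNF557 (0.978 to 0.972). DUSP8 was most like MIF4GD-DT, SLC6A18 and OR52R1 (0.935 to 0.934), and DUSP9 most like SHISA4, IFI27L1 and POLR2L (0.978 to 0.968). Lower values were found for DUSP2, with FAM219A, THAP4 and CSNK1D (0.825 to 0.773), and for DUSP7, with PPP1R3D, KDM6B and FZD8 (0.765 to 0.745).

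The ERK feedback inhibitors and output genes, a list of 18, were set beside the phosphatases. At 100 nM in SJSA-1 3 rose and 9 fell (median −0.22, against 0.06 over all genes), where 24.5% of all genes rose and 24.9% fell. At 400 nM 3 rose and 10 fell (median −0.62, against 0.10), where 41.6% rose and 24.9% fell. SPRED2, which holds back RAF activation, had means of 296 with DMSO, 95.6 at 100 nM and 18.8 at 400 nM in SJSA-1. Its log2 changes at these doses were −1.49 ± 0.11 and −3.16 ± 0.11. SPRED1, its relative, fell by 1.70 ± 0.10 at 100 nM in SJSA-1 and by 1.29 ± 0.10 in U2-OS. SPRY2 fell from a mean of 140 with DMSO to 110 at 100 nM and 12.3 at 400 nM in SJSA-1, with log2 changes of −0.32 and −2.47, the latter against a mean under the filter intensity. PHLDA1, an ERK-induced gene, fell by 2.0 ± 0.10 at 100 nM in SJSA-1 and rose by 0.39 in U2-OS, and the lines differed by −2.39. ETV4 did not pass in SJSA-1, with −0.15 ± 0.12 at 100 nM and 0.07 ± 0.12 at 400 nM. At these doses ETV5 fell there by 0.73 ± 0.09 and 0.52 ± 0.09, and SPRY4 by 0.27 ± 0.11 and 0.88 ± 0.11. SPRED3 rose by 0.25 ± 0.08 at 100 nM in SJSA-1 and was at −0.08 with spike-in centring. In U2-OS at 100 nM 4 genes of the list rose and 5 fell (median 0.04), near the 19.8% and 22.1% of all genes, with IER3 up by 1.20 ± 0.07. IER3 rose by 0.20 in SJSA-1, where spike-in centring gave −0.33.

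Of 19 tested immediate early transcription factor genes, 12 rose and 5 fell at 100 nM in SJSA-1 (median 0.21), where 24.5% and 24.9% of all genes did so. At 400 nM 7 rose and 9 fell (median 0.01), where 41.6% and 24.9% did so. FOSL1, an AP-1 subunit, fell by 2.56 ± 0.13 at 100 nM in SJSA-1 and by 2.11 ± 0.13 in U2-OS. EGR1 rose by 1.49 ± 0.11 in SJSA-1 and FOS by 1.14 at that dose. In U2-OS at 100 nM 7 rose and 5 fell (median 0.16), beside 19.8% and 22.1% of all genes. EGR1 rose there by 0.43 and FOS by 0.30, but with spike-in centring these values were −0.04 and −0.12.

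Among other phosphatases and related genes, 14 of a list of atypical DUSP genes were tested. At 100 nM 5 rose and 5 fell in SJSA-1 (median 0.10) and none rose and 5 fell in U2-OS (median 0.05). The shares of all genes that rose and fell at this dose were 24.5% and 24.9% in SJSA-1 and 19.8% and 22.1% in U2-OS, and they apply to the other lists at 100 nM too. DUSP3, a small nuclear phosphatase, fell by 0.83 ± 0.09 in SJSA-1 and by 1.08 ± 0.09 in U2-OS, and DUSP14 fell by 0.65 ± 0.09 and 0.84 ± 0.09. DUSP28 rose by 0.34 ± 0.09 in SJSA-1, or was at −0.08 with spike-in centring. Of 10 phosphatases of other families that act on MAP kinases, 1 rose and 2 fell at 100 nM in SJSA-1 (median 0.08) and 2 rose and none fell in U2-OS (median 0.05), near or below those shares. PTPRR, a tyrosine phosphatase of ERK, fell by 0.37 ± 0.09 in SJSA-1, and PPP2R2A, a regulatory subunit of protein phosphatase PP2A, by 0.35 ± 0.10. PPM1A rose there by 0.41 ± 0.09, and was at −0.09 with spike-in centring. PPM1D, an inducible phosphatase of p38, rose by 0.70 ± 0.10 in U2-OS.

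Of the 12 MAP kinase genes tested, 4 rose and 3 fell at 100 nM in SJSA-1 (median 0.14) and 3 rose and 3 fell in U2-OS (median 0.10), near the shares of all genes. NLK, a distant MAP kinase, fell by 1.97 ± 0.08 in SJSA-1 and by 1.93 ± 0.08 in U2-OS. MAPK8, which encodes a JNK, rose by 0.53 ± 0.07 in SJSA-1 and by 0.39 ± 0.07 in U2-OS, the latter at −0.09 with spike-in centring. MAPK3, which encodes an ERK, rose by 0.36 in SJSA-1 and 0.26 in U2-OS, but with spike-in centring was at −0.11 and −0.18. MAPK7 fell by 0.82 ± 0.10 in SJSA-1 and MAPK6 by 0.52 ± 0.13 in U2-OS.

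**Figure D5:**
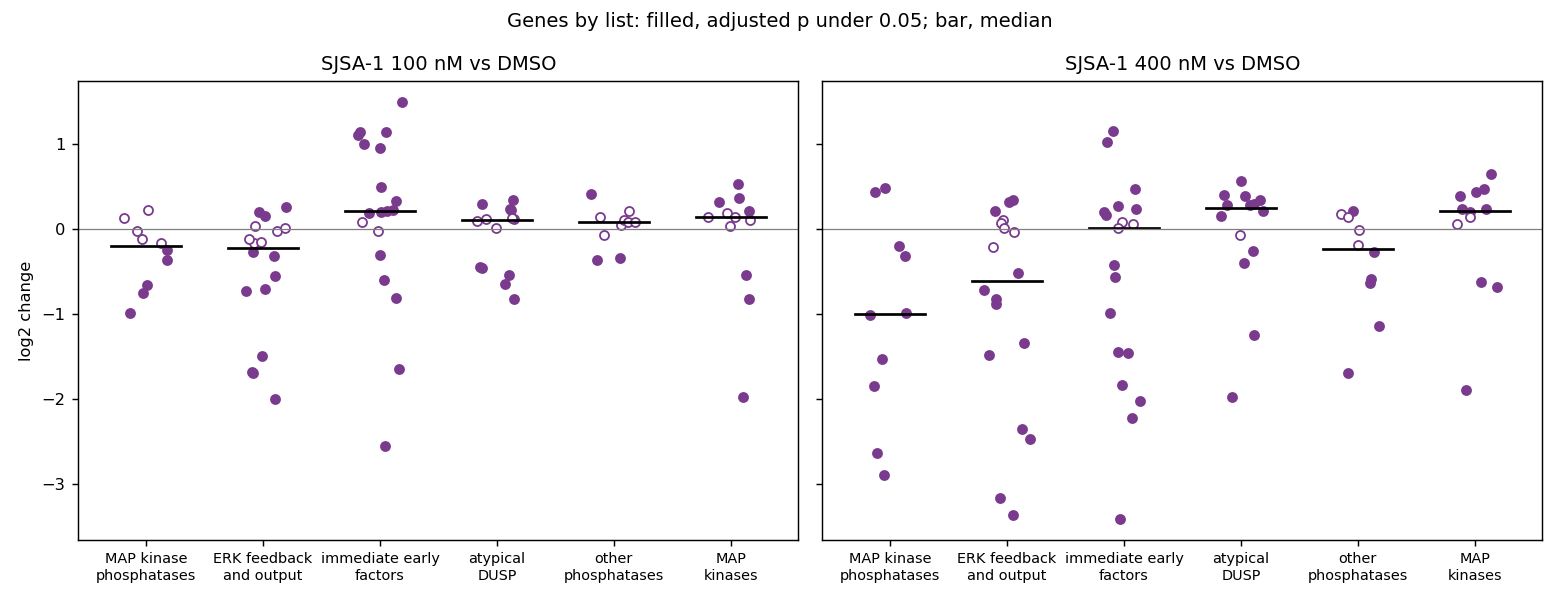
Log2 change against DMSO of each tested gene (vertical axis) by list in SJSA-1 at 100 nM (left) and 400 nM (right); filled points have a limma adjusted p under 0.05 and bars mark each list's median. The median of the 10 MAP kinase phosphatases lies at −0.21 and −1.0, and that of the ERK feedback and output genes at −0.22 and −0.62.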

How the data were processed

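Total RNA from 24 samples of 2 cell lines was measured on 24 arrays, 3 for each of 8 groups taken from the sample titles. The authors deposited 1 linear intensity per probe set and array. The submitters' processing notes name MAS5 and RMA, and which of them made the values, their versions and the genome build are not given in the sources used here. Per the labels, RNA was taken up with TRIzol in the treatment text, while the extraction text names a column kit and another tissue, and this difference was not settled. Intensities of the SJSA-1 arrays lay on whole hundredths of log2, to within 0.0001, for 100% of values, against 2.013% and 1.894% in the 2 U2-OS sets, where an even spread would give 2%.

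Of 49372 probe sets, 79 were controls, 44988 named 1 gene, 1832 several and 2473 none. The names come from the platform's annotation, and 44961 of the single names were found in the RefSeq table. A gene was represented by its brightest probe set (highest mean log2 value), and the probe sets of a gene are compared in the report. A gene was tested if its highest group mean reached the 30th percentile of all values, an intensity of 12.73. A pseudocount of 16 was added, so the log2 changes understate the change of dim genes. All 8 groups entered 1 limma fit (version 3.58.1, R 4.3.3) with an intensity trend and 16 residual degrees of freedom, and p-values were adjusted over 16173 genes. Tested on simulated data for SJSA-1 at 100 nM, the fit recovered 200 of 200 genes changed by 1 on the log2 scale, with 10 false calls among 16173 genes. The changed genes were drawn from brighter genes only and no other gene was changed. Recovery of dim genes, or with as many changed genes as in the data, was therefore not tested.

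The genes and lists were chosen with earlier results of these data known. All 10 phosphatase genes are named. Of each other list, the 2 largest falls and the largest rise that passed at 100 nM in each line are open to naming, together with MAPK3, MAPK8, SPRY2, SPRY4, ETV4, ETV5, FOSL1, EGR1, FOS and PHLDA1. From the marker lists, NEFL, VIM, RUNX2, IBSP, COL1A2, AQP4, PTPRC, LYZ, HBB, CD68, EPCAM and GFAP were named after their values were seen. Most alike genes are the 3 with the highest Pearson correlation. Scaling, filter, probe set rule, pseudocount (1 and 64), variance trend, replicate block, arrays in the fit and left-out replicates were varied.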

Additional observations from a re-analysis of the deposited data

Results flagged for a closer look

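The change of DUSP4 at 25 nM differed between the lines by 0.60 on the log2 scale, SJSA-1 minus U2-OS, by the interaction term in limma, in a gene whose U2-OS arrays lay near the filter intensity. Probe set 11758143_s_at, left out of the comparisons because its symbols are DUSP8 and GLUD1P3, had a mean of 49.1 ± 8.4 (SD, n = 3) in U2-OS at 400 nM against 21.2 ± 1.4 with DMSO, and between 8.33 and 10.7 in the SJSA-1 groups.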

How the results depend on the processing

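Of the 146 counts of called phosphatase genes computed under an alternative, 124 were within 1.5 times the count reported. In SJSA-1 at 25 nM, where 2 genes passed, none passed with spike-in centring, and 1 passed with quantile normalization, with no filter, with a pseudocount of 1, with no intensity trend and with only the 12 arrays of the line. Leaving out 1 replicate gave 1 to 2 there. In SJSA-1 at 100 nM 8 passed with spike-in centring against 5 reported. The line difference at 25 nM had 0 with spike-in centring. The line difference at 100 nM, 0 as reported, had 1 with spike-in centring, with quantile normalization, with a filter at the 50th percentile and with the replicate block, 3 with a pseudocount of 64, and 0 to 1 when 1 replicate was left out. The cause was not tested.

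Signs reversed with spike-in centring for DUSP8 at 100 nM in U2-OS (−0.20) and at 400 nM in SJSA-1 (−0.31) and for DUSP9 at 400 nM in SJSA-1 (−0.28). At 100 nM in U2-OS they also did so for MAPK8 (−0.087), TAOK2 (−0.068), EGR1 (−0.037), MAPK3 (−0.18) and FOS (−0.12), and at 100 nM in SJSA-1 for KSR1 (−0.076), GRB2 (−0.30), IER3 (−0.33), SPRED3 (−0.085), DUSP28 (−0.085), PPM1A (−0.090) and MAPK3 (−0.11). With the mean of the probe sets, DUSP8 at 400 nM in U2-OS was 0.35 and PPM1A at 100 nM in U2-OS was −0.27.

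The labels do not say that a replicate number marks a shared batch, so the arrays were not taken as paired in the main fit. By the median correlation of deviations from the group mean, same-numbered arrays were more alike than others in U2-OS. In SJSA-1 these medians were 0.068 and 0.0274. Whether same-numbered arrays shared a batch was not tested. The correlation of deviations between arrays of the same number ran from −0.0825 to 0.328 in U2-OS, with a median of 0.121 and 9 of 18 over 0.1, while arrays of other numbers had a median of −0.0749 and 5 of 36 over 0.1. In SJSA-1 it ran from −0.635 to 0.419, with 8 of 18 over 0.1, against 15 of 36 for other numbers. With the replicate block, 1 of the 8 counts of called phosphatase genes moved by over 1.5 times, the line difference at 100 nM. DUSP4 and DUSP6 in U2-OS and DUSP7 in both lines lie close to the filter intensity, where dim signal limits what the arrays can show.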

Other observations

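Of 18 MAP3K genes, the kinases at the top of the MAP kinase cascades, 3 rose and 9 fell at 100 nM in U2-OS (median −0.17), where 19.8% of all genes rose and 22.1% fell. In SJSA-1 2 rose and 8 fell (median −0.25), where 24.5% and 24.9% did so. MAP3K14, a kinase of the NF-kB pathway, had log2 changes of −1.15 ± 0.10 (U2-OS) and −0.95 ± 0.10 (SJSA-1), while TAOK2 rose by 0.35 ± 0.08 in U2-OS (−0.07 with spike-in centring) and MAP3K2 rose by 0.64 ± 0.13 in SJSA-1. Of 10 genes for RAS proteins, exchange factors and other proteins that act with RAS, such as GRB2, SHC1, NF1 and PTPN11, 1 rose and 4 fell in U2-OS. In SJSA-1 1 rose and 3 fell. SOS1, an exchange factor that activates RAS, had −1.55 ± 0.12 (U2-OS) and −1.16 ± 0.12 (SJSA-1), and the adaptor gene GRB2 rose by 0.50 ± 0.07 and 0.22 ± 0.07, the latter at −0.30 with spike-in centring.

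Of 9 RAF and MAP2K genes none rose and 1 fell in U2-OS, and 1 rose and 2 fell in SJSA-1, below or near the shares of all genes. MAP2K4, which phosphorylates JNK and p38, had −1.36 ± 0.10 (U2-OS) and −0.96 ± 0.10 (SJSA-1). Of 11 MAPK-activated kinase genes 2 rose and 2 fell in U2-OS, and 2 rose and 3 fell in SJSA-1, near those shares. MKNK2, a kinase activated by ERK and p38, rose by 1.38 ± 0.12 (U2-OS) and by 0.67 ± 0.12 (SJSA-1), while its relative MKNK1 fell by 1.01 ± 0.06 in SJSA-1. The named changes have a limma adjusted p under 0.05.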
